A study of Mus musculus with 18 samples.

Results

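Secreted and membrane proteins enter the endoplasmic reticulum (ER) while they are being made. The signal recognition particle (SRP) binds the emerging signal sequence and docks at its receptor, the Sec61 translocon passes the chain through the membrane, signal peptidase removes the signal sequence, and the oligosaccharyltransferase attaches the first sugars. Folded cargo then leaves in vesicles coated by COPII, in which the GTPase Sar1 recruits the inner coat of Sec23 and Sec24 and the outer coat of Sec13 and Sec31. Adipocytes use this route to release adiponectin, leptin and other adipokines.

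The set described here held 40 named genes of these machines, among 33440 genes with deposited estimates. It comprised 6 genes of the SRP, 2 of its receptor, 6 of the translocon, 4 of the SSR complex that sits beside it, 5 of signal peptidase, 7 of the oligosaccharyltransferase and 10 of COPII. All 40 passed the filter on low counts in both experiments, so each was tested in each.

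Transcript estimates from RNA sequencing of 18 mouse libraries were used. In the first experiment, stromal vascular fraction (SVF) cells of inguinal fat from 4 to 6 week-old C57BL/6 IRF3-2D mice were differentiated into adipocytes, transduced on day 6 with AAV and harvested on day 8. IRF3-2D is a form of the interferon transcription factor IRF3 that is always active and silent until Cre acts. AAV-Cre gave 3 FI3OE libraries and AAV-GFP gave 3 WT libraries, so WT cells also carried the unrecombined allele, and FI3OE cells had received both Cre and, through it, IRF3-2D. In the second, ribosome-bound RNA was isolated from epididymal fat (eWAT) by translating ribosome affinity purification (TRAP), which pulls down tagged ribosomes that the NuTRAP allele places in Adipoq-Cre cells. Here 6 FI3KO libraries, in which Adipoq-Cre also removes Irf3 from adipocytes, were set against 6 WT libraries with the same Adipoq-Cre and NuTRAP alleles, all from mice on a high-fat diet for 8 weeks at thermoneutrality, a diet that the study's methods begin at 8 weeks of age. Per the labels these were biological replicates.

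Depth ran from 21541334 to 36932452 reads in the SVF libraries and from 25259869 to 40490283 in the TRAP libraries. The Irf3 transcript Irf3-202, of 1429 bases, had 1368 to 2193 reads in FI3OE against 539 to 640 in WT, and 0 in every FI3KO library against 164 to 388 in WT, so by this transcript no library went against its label. Over the whole gene, Irf3 lay at 91.4 to 102 CPM in FI3OE against 56.8 to 57.9 in WT, and at 12.5 to 19.97 in FI3KO against 16.4 to 22.8 in WT. Other Irf3 transcripts had reads in FI3KO, Irf3-207 at 63.8 to 139 against 205 to 345 in WT, but Irf3-211 at 89.9 to 175 against 0 to 7.65 and Irf3-210 at 26.0 to 52.5 against 2.85 to 9.53. With an offset for transcript length the change in Irf3 over the whole gene in FI3KO went from -0.35 to 0.71. Adipocyte markers such as Adipoq and Plin1 were all detected in every group. WT TRAP replicates 1 and 2 were the closest pair within a group, with a median difference of 0.073 on the log2 scale over genes, against 0.0913 to 0.106 in SVF pairs and 0.0959 to 0.305 in other TRAP pairs. The variance between their counts was 2.48 times that which sampling alone gives, against 4.06 to 8.45 in SVF pairs and 8.92 to 299 in other TRAP pairs. Whether they come from 1 sample is not given in the labels. They were kept as separate libraries, and results with their mean as 1 library are also given. WT TRAP replicates 1 and 2 stood apart from 3 to 6 by this median difference. In FI3KO the split was less clear by this measure, replicate 2 lying closer to replicate 3 (0.196) than to replicate 1 (0.204). By the variance of counts over that of sampling, FI3KO did split, at 124 to 299 in pairs across the sets and 17.2 to 92.5 within them. In WT the pairs across, at 83.3 to 146, overlapped those within replicates 3 to 6, at 8.92 to 141. Results within each set, replicates 1 and 2 or 3 to 6, are also given.

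Promoter sequences are given first, as a description without a test. RefSeq windows (GRCm38.p6) of 300 bases, from 250 before to 50 after each start, were matched for 32 of the 40 genes, and 4 motifs were searched on both strands. The ER stress element ERSE (CCAAT, 9 bases of any kind, CCACG) was in 0 of the 32 windows and in 0.137% of the windows of 27025 genes. ERSE-II (ATTGG, 1 base, CCACG) was likewise in 0 of 32, against 0.0444%. The core of the unfolded protein response element, TGACGTG, was in 3 windows, those of Srpr, Sec23a and Sec24d (9.38%, against 2.22% of all). A pair of IRF half-sites (GAAA, 2 bases of any kind, GAAA) was also in 3, those of Ddost, Stt3a and Sec23b (9.38%, against 3.99%). A match is only a run of letters, and its use was not tested. The windows around the matches follow, in the direction of the gene and with the match in capitals. For Sec24d, which had the largest COPII decrease in FI3KO, the whole 250 bases before the start are given.

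Sec24d (chr3:123267246-123267495, plus strand, match 26 bases before the start): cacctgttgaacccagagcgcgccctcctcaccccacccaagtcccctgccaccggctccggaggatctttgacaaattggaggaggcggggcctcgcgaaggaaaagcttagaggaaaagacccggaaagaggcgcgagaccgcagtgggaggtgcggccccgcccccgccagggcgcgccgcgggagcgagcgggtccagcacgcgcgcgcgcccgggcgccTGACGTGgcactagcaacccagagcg

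Sec23a (chr12:59011994-59012022, minus strand, match 6 bases past the start): ctcctccccttTGACGTGgcagaggcggc

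Srpr (chr9:35211170-35211202, plus strand, match 13 bases before the start): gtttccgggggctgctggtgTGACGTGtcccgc

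Sec23b (chr2:144556137-144556186, plus strand, match 72 bases before the start, on the other strand): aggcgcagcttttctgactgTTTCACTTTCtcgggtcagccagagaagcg

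Stt3a (chr9:36767812-36767861, minus strand, match 219 bases before the start, on the other strand): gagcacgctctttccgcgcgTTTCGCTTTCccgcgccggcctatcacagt

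Ddost (chr4:138304489-138304538, plus strand, match 229 bases before the start): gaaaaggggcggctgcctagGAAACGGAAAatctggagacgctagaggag

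The first comparison asked how active IRF3 changed ER entry and exit genes in cultured adipocytes. Of the 40 genes 29 were called (adjusted p of at most 0.05, edgeR), where 37.0% of all 16105 genes tested were. In FI3OE 25 of them fell and 4 rose, where 16.8% of all genes fell and 20.2% rose. The median log2 fold change was -0.18 over the 40 genes and -0.0047 over all genes. Decreases were called in 4 of 6 translocon genes, both receptor subunits, 3 of 4 SSR genes and 4 of 5 signal peptidase genes. They were also called in 4 of 7 oligosaccharyltransferase genes, 6 of 10 COPII genes and 2 of 6 SRP genes. The 2 SRP calls, on Srp54a and Srp9, were lost in alternatives given below. The changes were small. The largest, in Sec11c, was a decrease of 36.6%, and 0 of the 40 reached a log2 fold change of 1 in either direction, where 1.63% of all genes fell and 1.99% rose past it. The FI3OE and WT libraries did not overlap for 26 genes that were lower and 6 that were higher, against 23.8% and 25.7% of all genes.

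**Figure D1:**
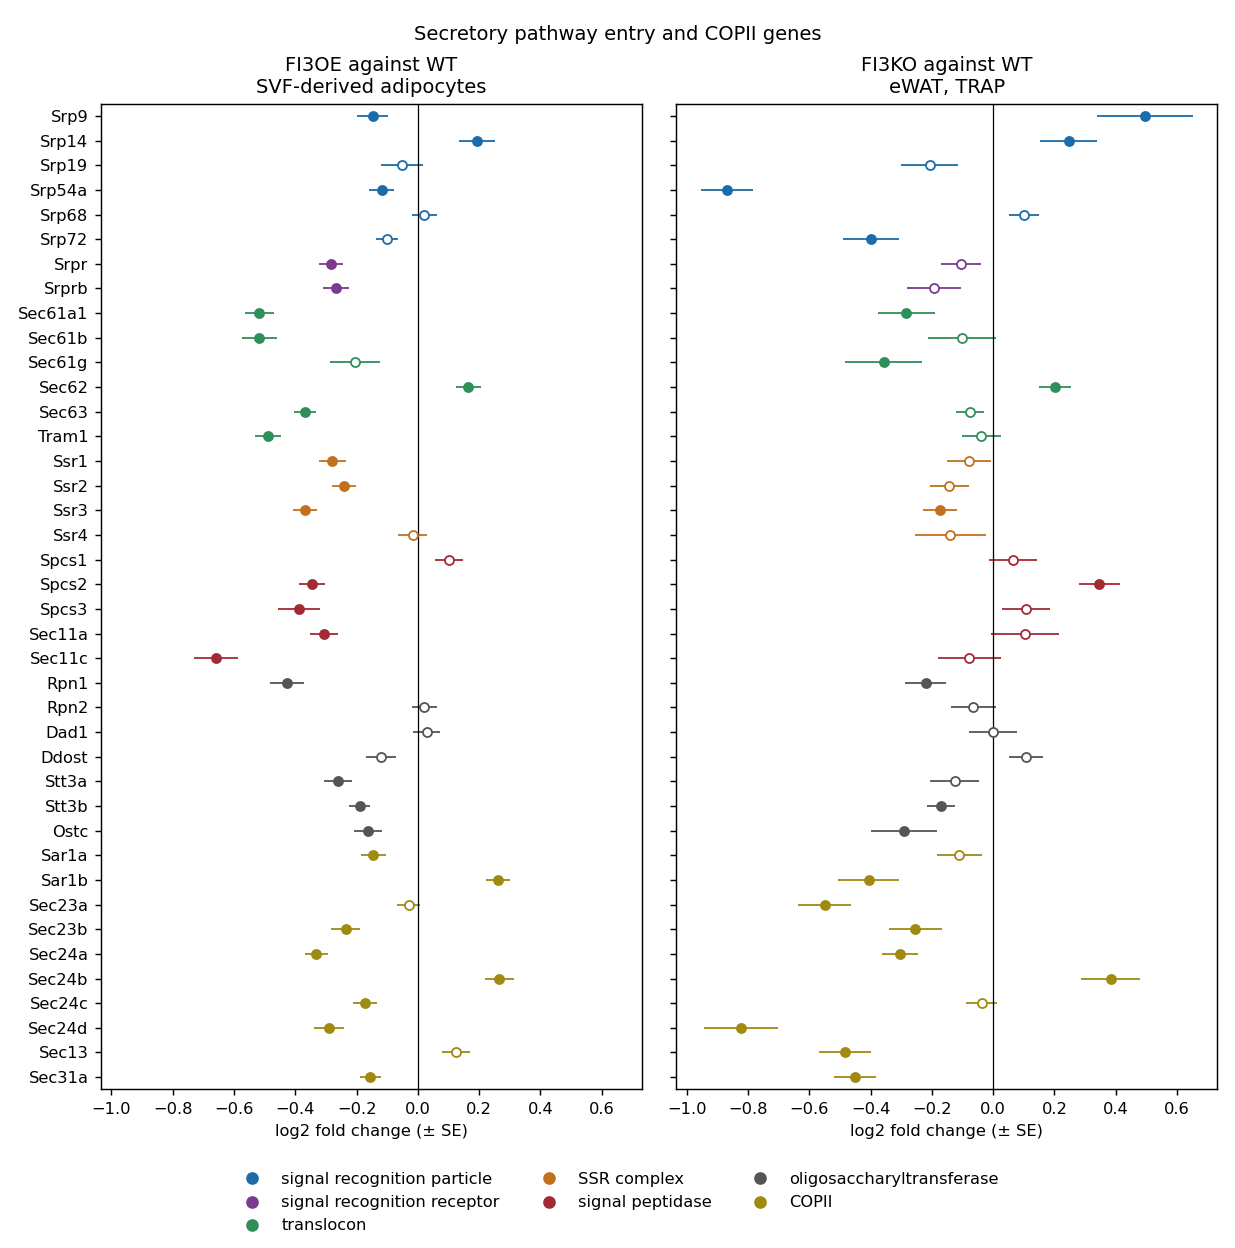
Log2 fold change (± SE) of the 40 genes, coloured by machine, in FI3OE against WT SVF-derived adipocytes (left) and FI3KO against WT eWAT TRAP (right). Filled points had an adjusted p of at most 0.05 (edgeR): 25 fell and 4 rose on the left, 15 fell and 5 rose on the right, and COPII genes lie furthest left among the machines in FI3KO, with a median of -0.36.

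At the targeting step, both receptor subunits fell, while SRP genes changed less. Srpr, the receptor subunit that meets SRP, lay at 139, 140 and 144 CPM (reads scaled to a common library size after TMM) in FI3OE and at 166, 178 and 170 in WT. Srprb, its membrane anchor, lay at 52.6, 50.5 and 52.3 CPM against 59.6, 63.3 and 64.3. Neither pair of groups overlapped, and the log2 fold changes were -0.28 ± 0.039 (SE, adjusted p = 0.00016) for Srpr and -0.27 ± 0.043 (adjusted p = 0.0005) for Srprb. Of the SRP proteins, Srp14 rose (0.19) while its partner Srp9 fell (-0.15), and Srp54a, which binds the signal sequence, fell by 0.12 on the log2 scale. Srp54a has near-identical copies, Srp54b and Srp54c, and with the reads of all 3 summed the change was -0.04 (adjusted p = 0.346), so the call on Srp54a was lost. It was also lost without any library but WT replicate 3 (adjusted p from 0.051 to 0.159). The calls on Srp9 and Srp14 were also lost, Srp9 without any library but FI3OE replicate 2 (adjusted p from 0.053 to 0.133) and Srp14 without FI3OE replicate 1 or 3 or WT replicate 1 or 2 (adjusted p from 0.0506 to 0.0945). Srp19, Srp68 and Srp72 were not called, with values of -0.05, 0.02 and -0.10.

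The translocon showed the largest median decrease of the machines, -0.43. Sec61a1 (gene ENSMUSG00000030082, GRCm38 chr6:88503579-88518905), which forms the channel, lay at 191, 182 and 195 CPM in FI3OE and at 258, 287 and 268 in WT. Sec61b, a small subunit of the channel, lay at 19.3, 18.7 and 19.3 CPM against 28.0, 25.9 and 28.1. Both sets of FI3OE values were below all WT values, and both genes fell by 0.52 on the log2 scale (SE 0.046, adjusted p = 5.2e-06 for Sec61a1, and SE 0.056, adjusted p = 2.33e-05 for Sec61b), a decrease of 30.1% each. Tram1, a membrane protein that contacts nascent chains, fell by 0.49, and Sec63, which brings the chaperone BiP to the channel, fell by 0.37. Sec62, which partners Sec63 in post-translational import, rose instead (0.16, adjusted p = 0.00798). Sec61g, the third subunit of the channel, had a value of -0.21 (adjusted p = 0.0731). Within the SSR complex, Ssr3 lay at 334, 338 and 355 CPM in FI3OE against 428, 447 and 451 in WT, and Ssr1 at 184, 190 and 191 CPM against 216, 228 and 241. These groups did not overlap either, with log2 fold changes of -0.37 ± 0.038 (adjusted p = 1.76e-05) and -0.28 ± 0.044 (adjusted p = 0.000421). With an offset for transcript length Ssr1 was at -0.16 and lost its call (adjusted p = 0.110). Ssr2 fell by 0.24 and Ssr4 was not called (-0.02).

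Signal peptidase held the largest single change. Sec11c, which like Sec11a is a catalytic subunit, lay at 16.6, 14.0 and 16.1 CPM in FI3OE and at 23.99, 23.9 and 25.8 in WT. Spcs3, an accessory subunit, lay at 76.7, 73.8 and 87.1 CPM against 94.4, 107 and 111. Both were lower in each FI3OE library than in any WT library, with log2 fold changes of -0.66 ± 0.072 (adjusted p = 2.65e-05) and -0.39 ± 0.068 (adjusted p = 0.000942). Spcs2 fell by 0.35 and Sec11a by 0.31, while Spcs1 had a value of 0.10 (adjusted p = 0.0968). Among the oligosaccharyltransferase genes, Rpn1, or ribophorin I, lay at 169, 162 and 165 CPM in FI3OE against 200, 232 and 235 in WT. Stt3a, the catalytic subunit that acts during translocation, lay at 188, 192 and 194 CPM against 214, 241 and 234. Again the groups were apart, at -0.43 ± 0.056 (adjusted p = 0.00011) and -0.26 ± 0.046 (adjusted p = 0.000919). With the length offset Stt3a was at -0.10 and lost its call (adjusted p = 0.224). Stt3b, the catalytic subunit of the other form of the enzyme, fell by 0.19 and Ostc, a subunit of the Stt3a form, by 0.16, a call lost without WT replicate 2 or 3 (adjusted p from 0.0685 to 0.07). Rpn2, Dad1 and Ddost, subunits shared by both forms, were not called, with values of 0.02, 0.03 and -0.12. Per length, Rpn2 was the most abundant of the 40 genes in both SVF groups, at 371 ± 5.01 TPM in FI3OE and 389 ± 11.3 TPM in WT (SD, n = 3).

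**Figure D2:**
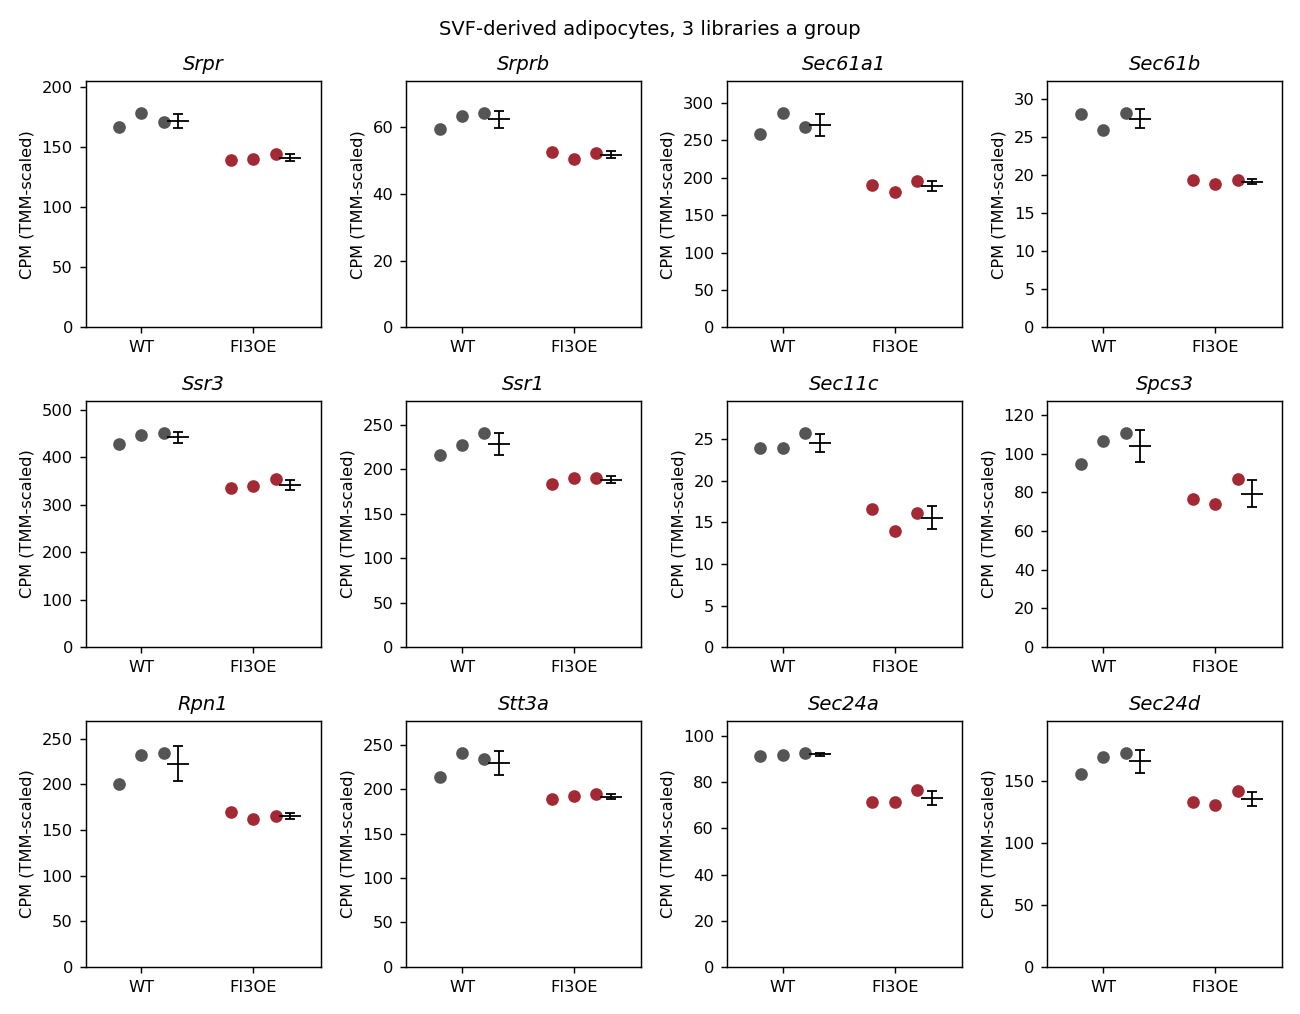
CPM (TMM-scaled) of the 12 genes with values given by library in SVF-derived adipocytes, with WT in grey and FI3OE in red. Each point is 1 library, and the bar is the mean ± SD (n = 3). In each panel all FI3OE points lie below all WT points, for example 182 to 195 against 258 to 287 for Sec61a1.

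COPII genes moved in both directions, and paralogs parted. Sec24a, a cargo-binding inner coat protein, lay at 71.5, 71.3 and 76.4 CPM in FI3OE and at 91.4, 91.9 and 92.7 in WT. Its paralog Sec24d lay at 133, 131 and 142 CPM against 155, 169 and 172. The groups did not overlap, at -0.33 ± 0.039 (adjusted p = 4.59e-05) for Sec24a and -0.29 ± 0.049 (adjusted p = 0.00069) for Sec24d. Sec24b, the closest relative of Sec24a, rose (0.27, adjusted p = 0.00115), as did the GTPase Sar1b (0.26, adjusted p = 0.000362), while the Sar1b paralog Sar1a fell by 0.15, a call lost without FI3OE replicate 1 or WT replicate 2 (adjusted p from 0.053 to 0.0631). With the length offset Sec24b was at 0.16 and lost its call (adjusted p = 0.124). In a single fit of all 18 libraries Sec24b, Sar1b and Sar1a lost theirs (adjusted p = 0.221, 0.265 and 0.434), at log2 fold changes of 0.27, 0.26 and -0.14. Sec24c fell by 0.17, Sec23b by 0.24 and the outer coat gene Sec31a by 0.15. In the fit of all 18 libraries these and Sec24d also lost their calls. There Sec24c, Sec23b, Sec31a and Sec24d had adjusted p = 0.164, 0.26, 0.368 and 0.313 (edgeR), at log2 fold changes of -0.17, -0.23, -0.15 and -0.29. Sec24a kept its call in every alternative. Sec23a and Sec13 were not called, at -0.03 and 0.12.

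Levels per length gave the resulting balance of paralogs, as a description without a test. Sar1a made up 62.1 ± 0.91% of the summed TPM of Sar1a and Sar1b in FI3OE and 68.8 ± 0.59% in WT (SD, n = 3), and the groups did not overlap. Sec24a made up 27.1 ± 0.25% of Sec24a plus Sec24b in FI3OE against 34.6 ± 1.44% in WT, also without overlap. Sec23a made up 58.1 ± 1.70% of Sec23a plus Sec23b against 53.6 ± 1.27%, the range being 56.1% to 59.3% in FI3OE and 52.3% to 54.8% in WT. The shares of Stt3a, at 52.5 ± 1.44% against 51.1 ± 0.79% of Stt3a plus Stt3b, and of Sec11a, at 67.6 ± 2.13% against 65.3 ± 1.75% of Sec11a plus Sec11c, overlapped between groups.

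Other genes of the route, in lists of related genes, did not all move this way, where 16.8% of all genes fell and 20.2% rose. Of 21 genes of ER exit sites and cargo receptors, 10 fell and 2 rose in FI3OE. Sec16b, a scaffold of exit sites, fell by 0.79 and Mia3, which helps load collagen, by 0.33, whereas the cargo receptor genes Ergic3 (0.38) and Ergic2 (0.20) rose. Of 15 genes of other membrane insertion routes, the EMC and GET pathways, 9 rose and 1 fell, with Emc4 at 0.43 and Emc9 at 0.40 the largest rises and Emc8, at -0.24, the decrease. Of 13 genes of COPI and ER retrieval, which return proteins from the Golgi, 3 rose and 3 fell, close to the shares over all genes. Of 11 further translocation genes, 3 rose and 4 fell, with Tusc3 at 0.40 and Magt1 at -0.74, which encode exchangeable subunits of the Stt3b enzyme. All 5 tested regulators of the unfolded protein response fell, including the ER chaperones Hspa5 (-1.65) and Hsp90b1 (-1.39), and Xbp1 the least (-0.13).

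Markers of other cells also differed between these cultures, where 16.8% of all genes fell and 20.2% rose. In bulk RNA fewer cells of a type and less RNA per cell cannot be told apart. The 8 fibroblast and preadipocyte markers summed to 13554 to 14068 CPM in FI3OE against 11885 to 12343 in WT, with 3 higher and 1 lower. Ly6a rose most (1.83), then Cd34 (0.72) and Col1a2 (0.29), while Col1a1 fell by 0.08 and 4 were not called. Whether the rise in Ly6a came with more of these cells was not tested. The 10 macrophage markers summed to 2028 to 2059 CPM against 2112 to 2260, and none of these was at 0. Of them 2 were higher and 2 lower, near the shares over all genes. The 10 adipocyte markers summed to 7277 to 7663 CPM against 7435 to 7519, with 2 higher and 5 lower. The part of these differences in the results above was not tested. In a single fit of all 18 libraries, 10 of the 40 genes fell and 0 rose in FI3OE, where 3.57% of all genes fell and 5.52% rose. Of the 29 calls 19 were lost, among them Srpr, Srprb, Ssr1, Stt3a and Sec24d. Their log2 fold changes in that fit, -0.28, -0.26, -0.28, -0.26 and -0.29, were close to those of the main fit. With the length offset 8 of the 29 calls were lost, on Srp9, Srp14, Srp54a, Ssr1, Stt3a, Ostc, Sec24b and Sec31a.

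The second comparison asked what adipocyte loss of IRF3 did to the same genes in eWAT. Of the 40 genes 20 were called, where 37.4% of all 13624 genes tested were. In FI3KO 15 of them fell and 5 rose, where 18.3% of all genes fell and 19.1% rose. The median was -0.12 over the 40 genes and 0.016 over all genes. Of the 10 COPII genes 7 fell and 1 rose, with a median of -0.36, while of the other 30 genes 8 fell and 4 rose, with a median of -0.09; the difference between these lists was not tested. Again 0 of the 40 reached a log2 fold change of 1, where 4.87% of all genes fell and 1.74% rose past it. The FI3KO and WT libraries did not overlap for 9 genes that were lower and 2 that were higher, against 8.53% and 7.47% of all genes.

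Within COPII, the inner coat genes Sec24d and Sec23a had the largest changes. Sec24d (gene ENSMUSG00000039234, GRCm38 chr3:123267455-123365641) ranged from 74.2 to 99.8 CPM in FI3KO (median 86.2) and from 119 to 180 in WT (median 161). Sec23a (gene ENSMUSG00000020986, GRCm38 chr12:58958383-59012017), the GTPase activator of Sar1 in the coat, ranged from 81.3 to 90.7 CPM (median 86.2) against 103 to 147 (median 134). No FI3KO library reached the lowest WT library in either gene. The log2 fold changes were -0.82 ± 0.122 (adjusted p = 0.0004), a decrease of 43.5%, for Sec24d and -0.55 ± 0.086 (adjusted p = 0.000553), a decrease of 31.7%, for Sec23a. The outer coat genes Sec13 and Sec31a fell by 0.48 and 0.45, Sar1b by 0.41, Sec24a by 0.30 and Sec23b by 0.25. Sec23b lost its call without FI3KO replicate 1, 2, 5 or 6 or WT replicate 3, 4, 5 or 6 (adjusted p from 0.0535 to 0.0845). Sec24b rose (0.38, adjusted p = 0.00753), and Sar1a and Sec24c were not called (-0.11 and -0.04).

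Summed over the 10 genes per length, COPII lay at 772 to 917 TPM in FI3KO (median 861) and at 971 to 1263 TPM in WT (median 1156). These sums did not overlap. The makeup of Sec24 also differed, as a description without a test: Sec24d held 29.0 ± 4.72% of all Sec24 TPM in FI3KO and 40.98 ± 3.45% in WT (SD, n = 6), and Sec24b held 14.5 ± 1.41% against 8.82 ± 1.66%. The ranges of Sec24d overlapped slightly, from 24.1% to 36.9% in FI3KO and from 36.6% to 45.9% in WT, while those of Sec24b did not, from 12.2% to 16.3% and from 7.07% to 11.3%. As a share of Sec24a plus Sec24b, Sec24a lay at 46.1 ± 2.06% in FI3KO against 58.5 ± 3.86% in WT, without overlap.

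**Figure D3:**
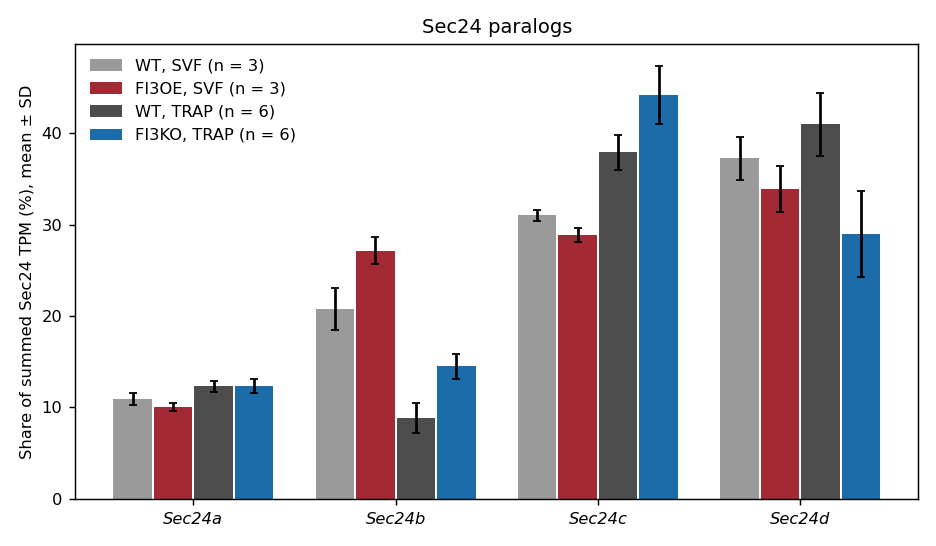
Share of each Sec24 paralog in the summed Sec24 TPM (%), as mean ± SD, in the 4 groups (n = 3 in SVF, n = 6 in TRAP). Sec24b held a larger share in FI3OE (27.1%) than in its WT (20.7%), and in FI3KO (14.5%) than in its WT (8.82%), while Sec24d held 29.0% in FI3KO against 40.98% in its WT.

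The SRP parted within itself in FI3KO. Srp54a (gene ENSMUSG00000073079, GRCm38 chr12:55080262-55115367) ranged from 62.5 to 90.8 CPM (median 66.8) in FI3KO and from 129 to 138 (median 131) in WT. Srp9, of the domain that slows elongation, ranged from 39.6 to 77.9 CPM (median 47.2) against 31.8 to 44.7 (median 36.2). The groups were far apart for Srp54a and overlapped for Srp9, whose highest value was FI3KO replicate 1. Srp54a fell by 0.87 ± 0.085 (adjusted p = 5.34e-05), the largest change among the 40 genes here, and Srp9 rose (0.49 ± 0.157, adjusted p = 0.025), a call lost without FI3KO replicate 4 or WT replicate 3, 4 or 6 (adjusted p from 0.0533 to 0.0585). With the reads of Srp54a, Srp54b and Srp54c summed, the values were 135 to 184 CPM in FI3KO and 250 to 265 in WT. The log2 fold change of this sum was -0.76 ± 0.074 (adjusted p = 5.31e-05). Taken alone, Srp54b fell by 1.06 and Srp54c by 0.53. Within Srp54a, the transcript Srp54a-201 of 1515 bases lay at 23.4 to 34.9 TPM in FI3KO and 81.7 to 99.9 in WT. The other main coding transcripts overlapped between groups, Srp54a-202 at 10.9 to 17.4 TPM against 13.5 to 16.6 and Srp54a-204 at 28.4 to 77.2 against 53.2 to 85.1, so the groups were apart in the estimate of 1 of these 3 transcripts. Srp72 fell by 0.40 and Srp14, partner of Srp9, rose (0.25), a call that held only without FI3KO replicate 2 or 6 when 1 library was left out (adjusted p otherwise 0.0558 to 0.109). Srpr and Srprb were not called (-0.11 and -0.19).

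At the translocon, Sec61g ranged from 6.80 to 9.95 CPM (median 9.10) in FI3KO and from 9.33 to 14.2 (median 10.7) in WT. Sec61a1 ranged from 139 to 157 CPM (median 148) against 140 to 204 (median 195). Both overlapped, since WT replicates 1 and 2 lay in the range of FI3KO. The changes were -0.36 ± 0.125 (adjusted p = 0.0391) for Sec61g, which lost its call without FI3KO replicate 1, 4, 5 or 6 or WT replicate 3, 4 or 5 (adjusted p from 0.0512 to 0.101), and -0.28 ± 0.094 (adjusted p = 0.0301) for Sec61a1, which lost it without FI3KO replicate 6 or WT replicate 3, 4, 5 or 6 (adjusted p from 0.0505 to 0.0704). Sec62 rose (0.20, adjusted p = 0.00806), a call lost with an offset for transcript length (adjusted p = 0.181), and Sec61b, Sec63 and Tram1, which fell in FI3OE, were not called here (-0.10, -0.08 and -0.04). Ssr3 ranged from 332 to 390 CPM (median 373) against 388 to 435 (median 416), with a log2 fold change of -0.17 ± 0.056 (adjusted p = 0.0277), a call lost without WT replicate 3, 4 or 5 (adjusted p from 0.0555 to 0.0628).

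Of the 5 signal peptidase genes 1 rose and 0 fell in FI3KO, where 19.1% of all genes rose and 18.3% fell, so in 5 genes these counts are near the shares over all genes. Spcs2, an accessory subunit, ranged from 37.9 to 51.0 CPM (median 45.2) in FI3KO and from 32.8 to 36.3 (median 35.7) in WT. The groups did not overlap and Spcs2 rose (0.35 ± 0.066, adjusted p = 0.00183), an increase of 27.2%, while the other 4 genes were not called, with values from -0.08 to 0.11. Among the oligosaccharyltransferase genes, Ostc ranged from 20.9 to 27.8 CPM (median 23.9) against 24.2 to 35.4 (median 29.8), and Rpn1 from 62.9 to 69.6 CPM (median 63.5) against 66.3 to 83.5 (median 76.9). Both overlapped between groups. The changes were -0.29 ± 0.108 (adjusted p = 0.0488) for Ostc, a call lost without FI3KO replicate 2, 5 or 6 or WT replicate 3, 4, 5 or 6 (adjusted p from 0.0662 to 0.106), and -0.22 ± 0.066 (adjusted p = 0.0189) for Rpn1. Stt3b fell by 0.17. With no filter on low counts Rpn1, Stt3b, Ostc and Ssr3 lost their calls (adjusted p = 0.05001, 0.102, 0.0652 and 0.114). Rpn2, Dad1, Ddost and Stt3a were not called. Per length, Sar1a led the 40 genes in WT at 385 ± 45.2 TPM and Rpn2 led in FI3KO at 328 ± 38.4 TPM (SD, n = 6), but the 2 did not differ beyond their spread in either group, Rpn2 being at 362 ± 23.8 TPM in WT and Sar1a at 323 ± 13.4 TPM in FI3KO.

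**Figure D4:**
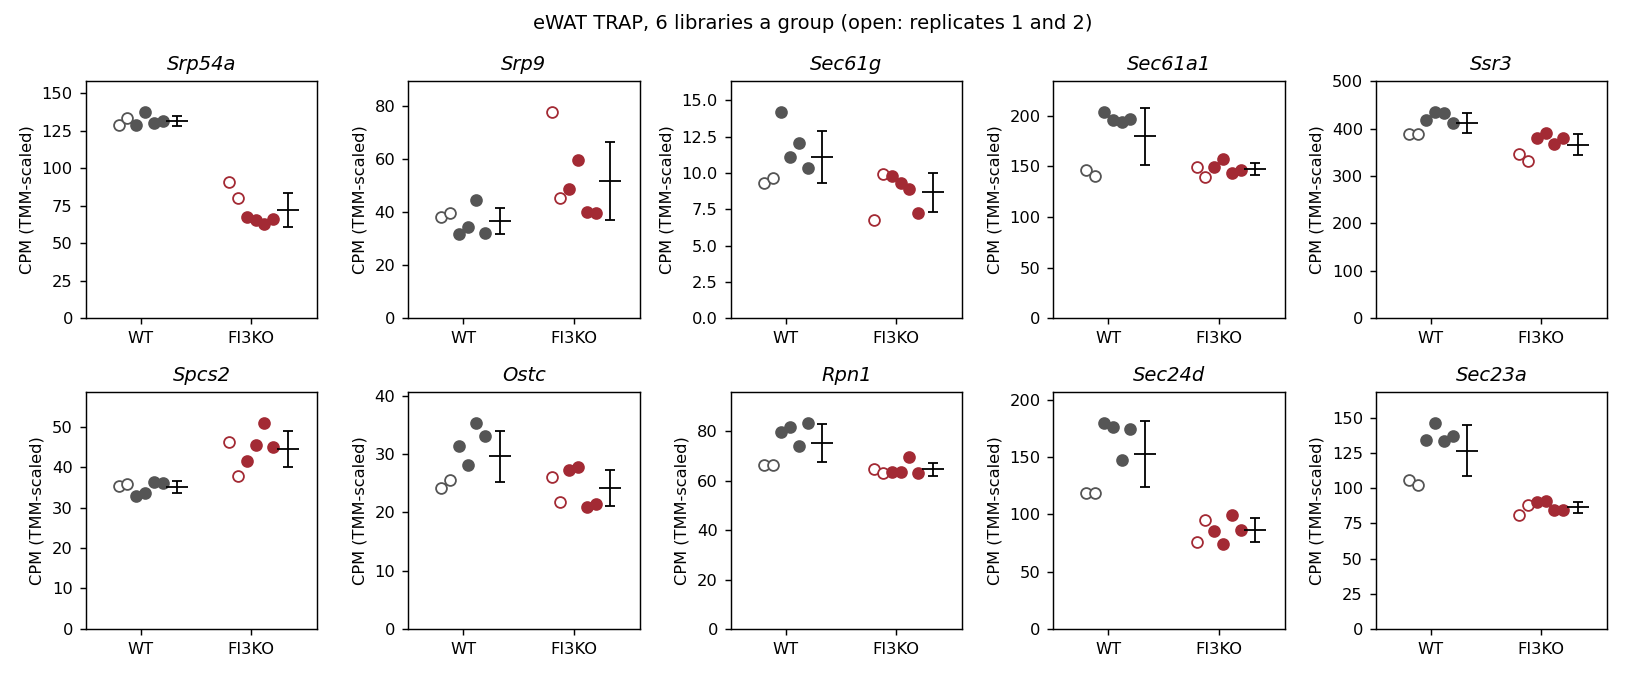
CPM (TMM-scaled) of the 10 genes with values given for eWAT TRAP, with WT in grey and FI3KO in red. Each point is 1 library, open for replicates 1 and 2, and the bar is the mean ± SD (n = 6). Srp54a, Sec24d, Sec23a and Spcs2 do not overlap between groups, and the open WT points of Sec61a1 lie at 140 and 146, within the FI3KO range.

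The change in FI3KO was compared between replicate sets, first with all libraries kept. Within WT, 12 of the 40 genes were lower and 1 was higher in replicates 1 and 2 than in 3 to 6, where 24.6% of all genes differed, and within FI3KO 1 was higher, where 5.34% did. Within replicates 3 to 6, 19 of the 40 genes fell and 6 rose, where 24.8% of all genes fell and 25.7% rose. Within replicates 1 and 2, with 2 libraries against 2, 1 fell (Srp54a) and 0 rose, where 1.98% of all genes fell and 1.58% rose. The difference itself, as an interaction term in edgeR, was past the threshold for 8 of 40 genes (20%), where 26.5% of all genes were called. These were Srp54a, Sec61a1, Sar1a, Sec23a, Sec23b, Sec24b, Sec24d and Sec13. Sec24d changed by -0.97 in replicates 3 to 6 and by -0.46 in replicates 1 and 2 (adjusted p of the difference = 0.0469), and Srp54a by -1.01 and -0.61 (adjusted p = 0.00701). Sec61a1 changed by -0.41 and 0.018 (adjusted p = 0.00353), and Sec24b by 0.57 and 0.03 (adjusted p = 0.0113). With WT replicates 1 and 2 averaged as 1 library, the difference was past the threshold for 3 of the 40 genes, Srp54a, Sec61a1 and Sec24b (adjusted p = 0.0454, 0.0235 and 0.0442), where 14.3% of all genes were called, and Sec24d was not called (adjusted p = 0.137). By the same averaging 3 genes were lower and 0 higher in WT replicates 1 and 2 than in 3 to 6 (7.47% of all genes differed), and within replicates 1 and 2, 0 of the 40 were called in edgeR and 4 had an unadjusted p of at most 0.05 (1.79% of all genes called). These fits take the averaged WT library to vary as the other libraries do. For COPII the median was -0.35 within replicates 3 to 6 (0.0056 over all genes), with 9 of 10 genes below 0. It was -0.28 within replicates 1 and 2 (0.029 over all genes), with 8 of 10, although 0 of the 10 were called in those 4 libraries. In the same 4 libraries Rpn1 lay at -0.049 (adjusted p = 0.68), Sec61g at -0.17 (adjusted p = 0.582) and Sec62 at 0.073 (adjusted p = 0.509). Over all alternatives run, Ostc ranged from -0.39 to -0.05 and Sec23a from -0.66 to -0.29 (highest adjusted p = 0.804 and 0.0805). Over all TRAP libraries with WT replicates 1 and 2 averaged, 16 genes fell and 4 rose (19.6% and 19.1% of all genes). With the sets as a term 17 fell and 5 rose (19.5% and 20.4%).

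Markers of other cells moved with genotype in the same libraries, where 18.3% of all genes fell and 19.1% rose. The 10 macrophage markers summed to 14.6 to 39.4 CPM in FI3KO and 32.2 to 80.5 in WT, and 7 of 9 tested were lower and 1 higher. Their median log2 fold change was -2.30 within replicates 3 to 6 and 0.50 within replicates 1 and 2. The 8 fibroblast and preadipocyte markers summed to 502 to 1202 CPM against 965 to 1938, with 3 of 7 tested lower, and had medians of -1.52 and 0.41. The 10 adipocyte markers summed to 27207 to 31368 CPM in FI3KO and 27983 to 31898 in WT, with 4 higher, the adipsin gene Cfd most (1.83), and 1 lower, the leptin gene Lep (-1.63). All 8 plasma and B cell markers together lay at 327 to 622 CPM against 533 to 825, with Mzb1 at 0 in every WT library, and 1 of the 2 tested was lower. The 8 endothelial markers summed to 71.9 to 121 CPM in FI3KO replicates 1 and 2, 24.9 to 40.3 in FI3KO replicates 3 to 6 and 29.2 to 58.9 in WT, and 0 of 7 tested were called. The 8 epididymal epithelium markers summed to 1.343 to 1.397 CPM in FI3KO replicates 1 and 2, 0 in FI3KO replicates 3 to 6 and at most 0.0668 in WT, too low to be tested. The part of these cells in the changes above was not tested.

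The lists of related genes gave mixed counts in FI3KO, where 18.3% of all genes fell and 19.1% rose. Of 13 genes of COPI and ER retrieval 7 fell and 0 rose, the KDEL receptor gene Kdelr3 by 1.12 and the coat gene Copg2 by 0.55. Of 21 genes of exit sites and cargo receptors 6 fell and 1 rose, no more than the 37.4% called over all genes, with Tfg, which organises exit sites, at -0.69, the cargo receptor gene Lman1 at -0.67, and Tmed2 at 0.18. Of 15 membrane insertion genes 3 rose and 3 fell, close to the shares over all genes, with Emc8 (0.33) and Asna1 (-0.25) changing most in each direction. Of 11 further translocation genes 5 fell and 0 rose, Srp54b and Tram2 (-0.54) the most. Among 5 regulators of the unfolded protein response, Xbp1 rose (0.36) and Hspa5 fell by 0.38.

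The experiments shared no library, but differed in cell source, depot, diet and the RNA purified, so their values are set side by side. Of the 40 genes, 10 fell in both FI3OE and FI3KO, where 3.10% of the 13093 genes tested in both did. They were Srp54a, Sec61a1, Ssr3, Rpn1, Stt3b, Ostc, Sec23b, Sec24a, Sec24d and Sec31a. In FI3OE the call on Srp54a was lost with its copies summed or without 5 of 6 libraries, and that on Ostc without 2 of 6. Those on Srp54a, Ostc and Sec31a were lost with the length offset. In the fit of all 18 libraries those on Srp54a, Stt3b, Ostc, Sec23b, Sec24d and Sec31a were lost. In FI3KO the calls on Sec61a1, Ssr3, Ostc and Sec23b were lost without 5, 3, 7 and 8 of the 12 libraries. With no filter on low counts those on Ssr3, Rpn1, Stt3b, Ostc and Sec23b were lost, and with the replicate block those on Sec61a1, Rpn1, Stt3b and Ostc. A further 3 rose in both, Srp14, Sec62 and Sec24b, where 3.44% of all genes did. Of these Srp14 lost its call without 4 of 6 SVF and 10 of 12 TRAP libraries, and with the offset for transcript length Sec62 lost its call in FI3KO and Sec24b in FI3OE. In the fit of all 18 libraries all 3 lost their calls in FI3OE. Gain and loss of IRF3 went in opposite directions for 3 genes, where 10.5% of all genes did. They were Sar1b, at 0.26 in FI3OE and -0.41 in FI3KO, Spcs2, at -0.35 and 0.35, and Srp9, at -0.15 and 0.49, with calls lost without 5 of 6 and 4 of 12 libraries. The FI3OE calls on Sar1b and Srp9 were lost in the fit of all 18 libraries. The remaining genes were called in FI3OE alone, in FI3KO alone or in neither. Srp72, Sec61g, Sec23a and Sec13 fell in FI3KO and were not called in FI3OE. The difference between the experiments was not tested.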

How the data were processed

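RNA was rRNA-depleted (Ribo-Zero), made into libraries with Nextera XT and quantified by the authors with fastp and Salmon 1.4.0. For 118733 transcripts the deposited files give estimated counts and length-scaled TPM. Estimated counts were summed per gene with GENCODE M21 (the authors used M24), which held 117850 of the transcripts; the other 883, with 0.375% to 1.08% of reads, were kept under their own IDs. Sums were rounded and tested with edgeR 4.0.16 in R 4.3.3 (filterByExpr, TMM, quasi-likelihood test, Benjamini-Hochberg adjustment over all genes tested), each experiment in its own fit. A gene was called at an adjusted p of at most 0.05; the study's own cutoffs also need a log2 fold change past 1 in size. SE is the log2 fold change over the square root of F. CPM is TMM-scaled, and TPM, as deposited by the authors, gave levels between genes and paralog shares. Depth was 21541334 to 40490283 reads, and errors are those between libraries. The pipeline was tested on simulated data.

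The members and lists were chosen with earlier results of these data known. Values by library are given for the 2 called genes of each machine with the largest absolute log2 fold change (SRP and receptor together), for Irf3, and of related lists at most the 2 largest rises and falls are named. Alternatives were DESeq2 1.42.0 size factors and Wald test, other filters, a length offset, a robust dispersion, a replicate block, 1 fit of 18 libraries, removal of mitochondrial and rRNA-like genes, leaving out libraries and replicate sets. Chosen after seeing the data were the mean of WT TRAP replicates 1 and 2 (also for the comparison of replicate sets), the replicate sets as a term, and the Srp54 copies summed. Promoter motifs were searched with Python 3.11.15. Ddit3 was not used, its symbol having more than 1 gene ID.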

Additional observations from a re-analysis of the deposited data

Results flagged for a closer look

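Each of the 40 genes was looked at for a library far from the rest of its group in the 2 TRAP groups of 6, which made 80 groups, and 2 had such a library, where chance alone gives about 1 in 20. Rpn1 lay at 69.6 CPM in FI3KO replicate 5 and at 62.9 to 64.9 in the other 5 libraries. Stt3b lay at 581 CPM in WT replicate 4 and at 545 to 551 in the others.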

How the results depend on the processing

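Main counts were 25 lower and 4 higher of 40 in FI3OE, and 15 lower and 5 higher in FI3KO. In FI3OE, 1 fit of all 18 libraries gave 10 lower and 0 higher, and the length offset gave 2 higher. In FI3KO, no filter on low counts gave 9 lower, the length offset gave 3 higher, and replicates 1 and 2 alone gave 1 lower and 0 higher. Also asking for a log2 fold change past 1 gave 0 in each direction in both. Leaving out single libraries gave 22 to 25 lower and 3 to 5 higher in FI3OE, and 10 to 16 lower and 3 to 5 higher in FI3KO. Replicate numbers did not pair the libraries (correlations of same-numbered libraries -0.29 to 0.10 in TRAP and -0.05 to 0.02 in SVF), and each correlated best with its own number in 0 of 6 and 1 of 3 pairs. The replicate block gave 11 lower and 3 higher in FI3KO, and its counts in FI3OE were within 1.5 times of the main ones. In FI3KO it lost the calls on Srp9, Srp14, Sec61a1, Rpn1, Stt3b and Ostc (adjusted p from 0.0503 to 0.109, edgeR). Their log2 fold changes under the block were 0.46, 0.23, -0.27, -0.22, -0.17 and -0.29. In FI3OE the block lost the call on Srp9 (adjusted p = 0.063). Sec61a1 in FI3KO turned from -0.28 to 0.018 in replicates 1 and 2 alone, and Irf3 in FI3KO from -0.35 to 0.71 with the length offset; the cause was not tested. No other called gene of the 40 changed sign in any alternative that was run. With WT TRAP replicates 1 and 2 averaged as 1 library, fewer of the 40 genes had a change in FI3KO that differed between replicate sets, as given above. The count of 12 genes lower in WT replicates 1 and 2 than in 3 to 6 took those 2 libraries as separate. It was also lower with them averaged. Sec61g and Srp19 had the lowest mean CPM in TRAP. In FI3OE Sec11c, the largest single change there, had the lowest mean CPM (15.6).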
